A study of Mus musculus with 6 samples.

Results

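Long non-coding RNAs (lncRNAs) that carried ribosome-protected reads in mouse islets are described here. They are the genes annotated as lncRNA that had at least 300 Ribo-seq counts summed over 6 libraries, with *4833413G10Rik* left out. Of 11288 lncRNA genes in the table, 4554 had at least 1 count and 94 reached this minimum. Of the 94, 5 are named as small nucleolar RNA (snoRNA) host genes, namely *Gas5*, *Snhg1*, *Snhg6*, *Snhg12* and *Snhg15*, and 89 are other lncRNAs. These genes were chosen by their total counts, so their abundance is given as a description only.

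In high glucose, islets from male C57BL/6J mice of 6 to 8 weeks were kept for 2 h in RPMI medium with 25 mM glucose (3 libraries). In low glucose, islets of the same kind were kept for 2 h with 2.5 mM glucose (3 libraries). Islets of both conditions had recovered overnight, had been held in glucose-free medium with serum, and received cycloheximide at 100 µg/mL in the last 15 min. The islets of each mouse were divided between the conditions, and each library was made from islets pooled from several mice. In this assay, RNase I digests RNA outside ribosomes and the protected fragments, or footprints, are sequenced and counted per gene. The counts do not separate fragments held by translating ribosomes from other protected RNA, and footprint levels follow the amount of an RNA as well as its ribosome load. In bulk islets, fewer cells of a type and less RNA per cell cannot be told apart.

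lncRNAs lack a long annotated coding frame, yet many reach the cytoplasm, where ribosomes can engage short frames near their 5′ ends. The snoRNA host genes are the best known case. Their introns carry snoRNAs, which guide the modification of ribosomal RNA, while the spliced exons are exported, met by ribosomes and often removed by nonsense-mediated decay. Several mammalian host genes, *Gas5* among them, begin like ribosomal protein mRNAs with a 5′ terminal oligopyrimidine (TOP) tract, a cytosine followed by a run of pyrimidines. Other lncRNAs stay in the nucleus, such as *Malat1* in nuclear speckles and *Neat1* in paraspeckles.

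The annotated starts of the lncRNAs that hold snoRNA genes are shown because several host genes are known to share a TOP start with ribosomal protein genes. Each sequence holds 20 bases before and 30 bases after a RefSeq start of build GRCm38.p6, on the transcribed strand. Capitals mark a run of at least 5 C or T bases that begins with C within 5 bases of the start. *Gas5* (its downstream start) lies at chr1:161035146-161035195 (+ strand), *Snhg12* at chr4:132308658-132308707 (+), *2410006H16Rik* at chr11:62602857-62602906 (+), *Rab26os* at chr17:24528231-24528280 (+), *1110038B12Rik* (its downstream start) at chr17:34952439-34952488 (−) and *AI506816* at chr5:23712638-23712687 (−). *Snhg1* at chr19:8723467-8723516 (+) and *Snhg15* at chr11:6528731-6528780 (−) had no such run, nor did the upstream start of *Gas5* and the start of *Rian*.
Gas5: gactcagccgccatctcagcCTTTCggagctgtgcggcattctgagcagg
Snhg12: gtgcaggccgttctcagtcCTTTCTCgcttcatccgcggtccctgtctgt
2410006H16Rik: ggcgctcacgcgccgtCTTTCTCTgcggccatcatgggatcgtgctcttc
Rab26os: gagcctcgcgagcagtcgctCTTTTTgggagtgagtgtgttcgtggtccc
1110038B12Rik: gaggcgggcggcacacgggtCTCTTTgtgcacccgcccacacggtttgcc
AI506816: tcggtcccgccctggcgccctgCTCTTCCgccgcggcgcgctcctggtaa
Snhg1: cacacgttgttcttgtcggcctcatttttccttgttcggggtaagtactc
Snhg15: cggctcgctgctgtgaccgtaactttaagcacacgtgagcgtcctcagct

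Of the 12 lncRNAs that hold a snoRNA gene, 9 were read for this run, and *Snhg6*, *Epb41l4aos* and *ENSMUSG00000120012* were not analysed here. In these 9 genes, 7 of 11 annotated starts (63.6%) had the run. It was found at 10 of 59 starts (16.9%) of the other lncRNAs, at 31 of 70 starts (44.3%) of cytosolic ribosomal proteins and at 6027 of 32851 starts (18.3%) in the whole table. Counted by gene, a start with the run was found in 6 of the 9 genes and in 10 of 47 other lncRNAs. The same held for 29 of 60 ribosomal protein genes and 5718 of 27025 genes in the whole table. The sequences at the 2 starts of *1110038B12Rik* overlap and hold the same run. One gene can have several starts, only the transcribed strand was read, and the run was defined after the expression values had been seen, so these shares are a description with no test. A run is a match of letters, not a mapped TOP tract.

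The lncRNAs took a small part of the footprints, and that part was uneven. The 94 genes had between 302 and 62148 counts each, with a median of 591.5, and 75 of them had fewer than 1000. Together they held 154670 counts, which is 65.5% of the counts on all lncRNA genes. *Gm48855* alone held 40.2% of these counts and the 10 most counted genes held 66.9%. In high glucose the 94 genes took 0.154%, 0.153% and 0.169% of library counts (0.159% ± 0.00901, SD, n = 3). In low glucose they took 0.272%, 0.181% and 0.186% (0.213% ± 0.0512, SD, n = 3). Most of the excess in low glucose replicate 1 was on *Gm48855*, which took 0.0452% to 0.0675% of counts in high glucose and 0.152%, 0.0687% and 0.0794% in low glucose. Without *Gm48855* the share was 0.103% ± 0.00483 in high glucose and 0.113% ± 0.00687 in low glucose (SD, n = 3 each). The 5 snoRNA host genes took 0.0106% ± 0.000683 in high glucose and 0.0109% ± 0.00115 in low glucose (SD, n = 3 each).

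**Figure D1:**
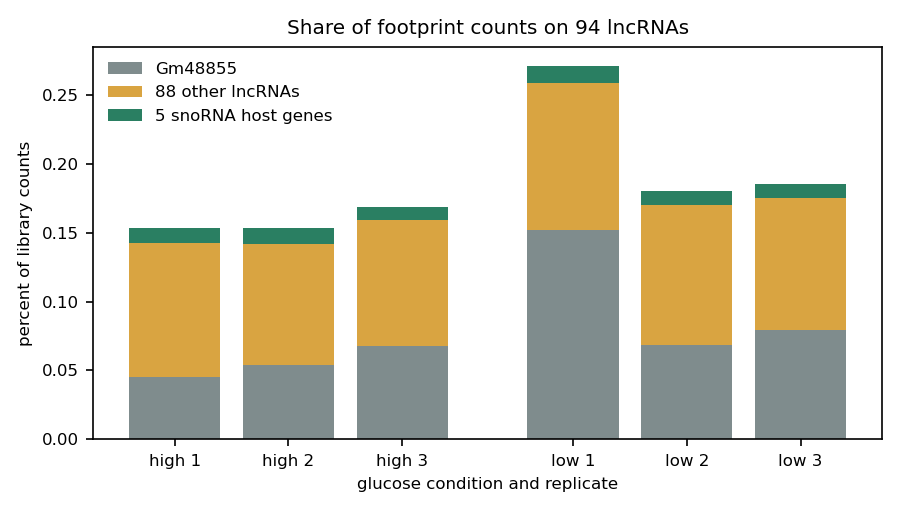
Share of each library's footprint counts on the 94 lncRNAs, in percent (vertical axis), for the 3 high glucose and the 3 low glucose libraries (horizontal axis). Each bar is 1 library, split into *Gm48855*, 88 other lncRNAs and 5 snoRNA host genes, and low glucose replicate 1 stands highest at 0.272%, of which *Gm48855* is 0.152%.

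Library totals were 16322162, 16988447 and 20692579 counts in high glucose, against 9242549, 11524828 and 12175699 in low glucose. The totals differed with condition, so levels are given as CPM (counts scaled to library size) after TMM scaling (factors 0.98 to 1.024). Each log2 fold change (log2FC) is high over low glucose, with its standard error (SE) and an edgeR quasi-likelihood p adjusted over all 13100 genes tested. A gene is called higher or lower where this p is under 0.05. All 10 beta cell markers checked, *Ins1*, *Ins2* and *Iapp* among them, had counts, with summed levels of 161362 to 176441 CPM in high glucose and 131907 to 147986 CPM in low glucose. *Ins2* made up most of the sum (means of 117224 CPM in high and 91577 CPM in low glucose). Of the markers, 7 were higher, 2 were lower (*Iapp* and *Mafa*) and 1 did not pass.

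All 94 lncRNAs entered the test. In high glucose 10 were higher and 15 were lower, and 69 did not pass. Over all genes tested, 12.1% were higher and 10.2% were lower (22.2% in either direction), beside 10.6% and 16% of the 94 lncRNAs, and the difference from the background was not tested. With 1 library left out, 12 to 14 of the 94 were lower. Over all 446 lncRNA genes tested, whatever their counts, 8.52% were lower and 3.36% were higher. Some of the 446 had counts in 1 condition alone and entered the test only through it, so these shares are a description with no test. The median log2FC of the 94 was −0.10 (quartiles −0.65 and 0.35), beside −0.01 (quartiles −0.36 and 0.29) over all genes tested. The 3 libraries of one condition lay wholly above or below those of the other in 33 lncRNAs, 11 with high glucose above and 22 with it below. The background of such separation was 37.5% of all genes tested, 19.5% with high glucose above and 18.0% with it below. Of the 25 calls, 12 were kept with each of the 6 libraries left out in turn. Among these 12 were *Gm34481*, *Gm26912* and *Bloc1s6os*, which reached the count minimum through the low glucose libraries alone. They are also among the 15 lower and the 22 with high glucose below, and their values are a description with no test.

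**Figure D2:**
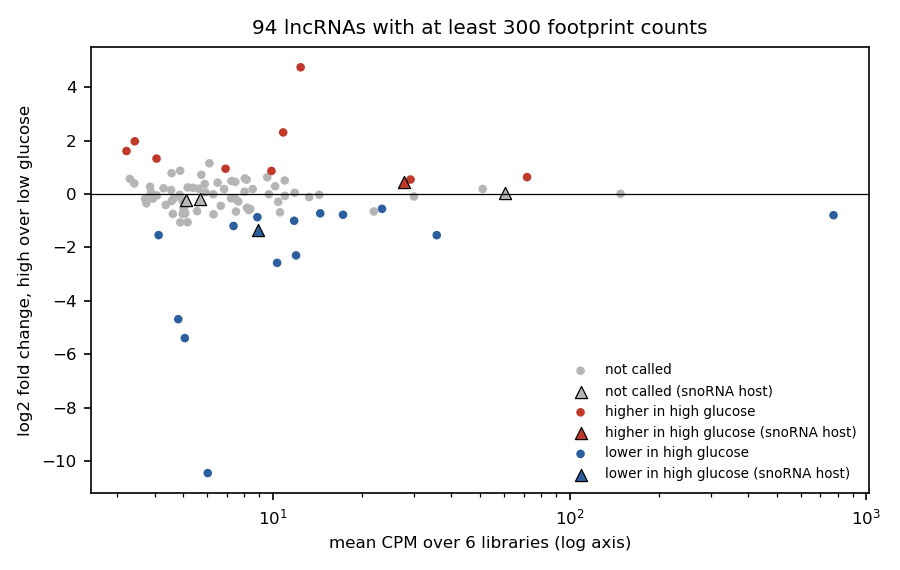
Log2 fold change of high over low glucose (vertical axis) against mean CPM over 6 libraries (horizontal log axis) for the 94 lncRNAs. Triangles are the 5 snoRNA host genes, red and blue mark the 10 higher and 15 lower calls, and the lowest point, *Gm34481*, had no count in high glucose, so its fitted value is not a measured fold.

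The 5 snoRNA host genes did not move in one direction. *Snhg1* was higher, *Snhg6* was lower, and *Gas5*, *Snhg12* and *Snhg15* did not pass the test, with a median log2FC of −0.19 over the 5. *Gas5* (ENSMUSG00000053332, chromosome 1), a growth-arrest transcript with 10 snoRNA genes inside it, had the most footprints of the class. Its levels were 62, 64.9 and 56.5 CPM in high glucose and 69.6, 56.3 and 53.2 CPM in low glucose. The conditions overlapped (log2FC = 0.04, SE 0.12, edgeR adjusted p = 0.87), and the sign of this value turned with library totals only or upper-quartile factors.

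*Snhg1* (ENSMUSG00000108414, chromosome 19), which holds 8 snoRNA genes, had 34.6, 33.5 and 28.2 CPM in high glucose, against 25.4, 22.7 and 22.3 CPM in low glucose. Every high glucose library lay above every low glucose library (log2FC = 0.45, SE 0.16, edgeR adjusted p = 0.040). It was no longer called without high glucose replicate 1 or 2 or low glucose replicate 2 or 3, nor with library totals only or upper-quartile factors (adjusted p 0.061 to 0.15). *Snhg6* (ENSMUSG00000098234, chromosome 1), which holds *Snord87*, had 3.54, 5.16 and 6.42 CPM in high glucose, against 15.2, 9.69 and 13.6 CPM in low glucose. These ranges do not meet, and the fall (log2FC = −1.34, SE 0.29, edgeR adjusted p = 0.0016) was kept in every alternative run. *Sgk3*, a protein kinase gene on the opposite strand that overlaps *Snhg6*, had 5.53 ± 0.327 CPM in high and 9.40 ± 1.71 CPM in low glucose (SD, n = 3 each; edgeR adjusted p = 0.059). Whether the counting used strand is not given in the sources used here, so reads of the *Snhg6* and *Sgk3* overlap cannot be told apart.

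*Snhg12* had 3.42, 7.44 and 5.09 CPM in high glucose and 4.45, 7.46 and 6.26 CPM in low glucose. *Snhg15* had 4.66, 4.08 and 5.38 CPM in high glucose and 5.30, 5.40 and 5.77 CPM in low glucose. Both overlapped between conditions, with log2FC values of −0.19 (SE 0.36) and −0.22 (SE 0.34), and with these errors a change of the size seen for *Snhg1* was not detectable at this depth.

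Outside the *Snhg* names, 7 more of the lncRNAs hold a snoRNA gene. None was higher, 1 was lower and 6 did not pass, with a median log2FC of 0.20. The lower one was *2410006H16Rik* (ENSMUSG00000086841, chromosome 11), which holds *Snord49a*, *Snord49b* and *Snord65*. It had 20, 18.8 and 17.9 CPM in high glucose, against 31.4, 27.9 and 24.2 CPM in low glucose. The conditions were apart (log2FC = −0.56, SE 0.17, edgeR adjusted p = 0.019), but the gene fell short of the threshold without high glucose replicate 2 or 3 or low glucose replicate 1 or 2 (adjusted p 0.054 to 0.083). *AI506816* was the most abundant of the 7, with 54.3 ± 8.07 CPM in high and 47.7 ± 2.43 CPM in low glucose (SD, n = 3 each). *Rab26os*, with *Snord60*, had 8.89, 11.3 and 18.4 CPM in high glucose, all within or above the 9.86, 9 and 8.45 CPM of low glucose (edgeR adjusted p = 0.20). *1110038B12Rik*, with *Snord52*, had 9.11 CPM in high and 8.02 CPM in low glucose on average.

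*Rian*, an imprinted transcript with 13 snoRNA genes inside it, had 5.78, 4.86 and 11.8 CPM in high glucose and 6.47, 4.63 and 5.69 CPM in low glucose. *Epb41l4aos* (chromosome 18) was the most scattered of the group, with 6.65, 4.56 and 8.84 CPM in high glucose and 2.01, 10.1 and 3.25 CPM in low glucose. *ENSMUSG00000120012*, with *Snord104*, had a log2FC of 0.20 (SE 0.33). In all, 49 snoRNA genes lie inside these 12 lncRNAs, and the table gives none of them a count. Nearly all snoRNA genes lacked counts, as only 22 of 1507 in the table had at least 1, so this is not particular to the 12 lncRNAs.

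**Figure D3:**
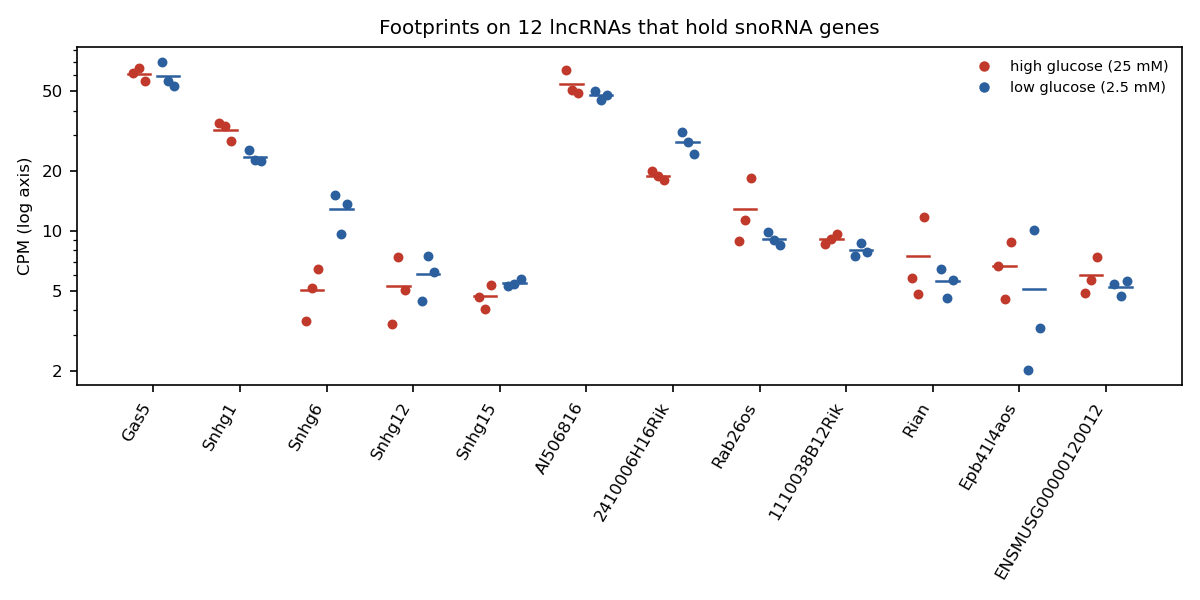
Footprint level in CPM (vertical log axis) of the 12 lncRNAs that hold snoRNA genes, the 5 named snoRNA hosts first. Points are single libraries (3 of high and 3 of low glucose), short lines are means, and only *Snhg1*, *Snhg6* and *2410006H16Rik* have conditions that do not overlap.

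Of 17 proteins of box C/D and H/ACA snoRNPs, the particles that snoRNAs form, 1 was higher (*Nolc1*, a nucleolar chaperone of snoRNPs, log2FC = 0.45, edgeR adjusted p = 0.026), 1 was lower (*Ruvbl2*, an ATPase of their assembly, log2FC = −0.49, edgeR adjusted p = 0.0063) and 15 did not pass, with a median of −0.02. Over all genes tested 22.2% were called, and neither of these 2 proteins was called without low glucose replicate 2. The count was 1 without high glucose replicate 1 or 2 or low glucose replicate 3. Of 19 nonsense-mediated decay factors, 4 were higher, 2 were lower and 13 did not pass, with a median of 0.17. Among the higher ones were the helicase *Upf1* (log2FC = 0.51, edgeR adjusted p = 9.3e-05), *Eif4a3* and *Nbas*. The lower ones were *Pnrc2* (log2FC = −0.88, edgeR adjusted p = 2.2e-08) and *Rnps1*. Of 79 cytosolic ribosomal proteins tested, whose mRNAs are the classical TOP class, 57 were higher, 1 was lower and 21 did not pass, with a median log2FC of 0.71. The difference between these genes and the snoRNA hosts was not tested.

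The nuclear lncRNAs *Malat1* and *Neat1*, which lie on chromosome 19, differed. *Malat1* (ENSMUSG00000092341) had 94, 77.8 and 90.3 CPM in high glucose, against 59.9, 55.0 and 54.7 CPM in low glucose. Every high glucose library was above every low glucose library (log2FC = 0.63, SE 0.10, edgeR adjusted p = 1.0e-04), and the call was kept in every alternative run. *Neat1* had 33.8, 28.5 and 24.4 CPM in high glucose and 35.7, 26.9 and 30.1 CPM in low glucose, so its conditions overlapped (log2FC = −0.09, SE 0.16, edgeR adjusted p = 0.74). The difference between the changes of these genes was not tested. Of 7 nuclear-retained lncRNAs tested, with or without 300 counts, *Malat1* was the one that passed.

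*Meg3*, the maternally expressed lncRNA of the imprinted region that also holds *Rian*, had 7.46, 6.06 and 5.48 CPM in high glucose, against 1.91, 4.97 and 3.41 CPM in low glucose. The conditions did not overlap, yet the gene missed the threshold (log2FC = 0.87, SE 0.38, edgeR adjusted p = 0.11). No imprinted lncRNA passed among the 6 tested. *Mir670hg* (chromosome 2), the host transcript of miR-670, had 12.7, 13 and 12.5 CPM in high glucose, against 10.8, 4.55 and 5.85 CPM in low glucose. It was the higher one of 4 microRNA host lncRNAs tested (log2FC = 0.86, SE 0.29, edgeR adjusted p = 0.034). Its call was kept without low glucose replicate 1 and lost without any one of the other 5 libraries (adjusted p 0.077 to 0.15).

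A few lncRNAs lie beside genes that define endocrine cells, and none passed the test. *Paupar*, transcribed upstream of the islet transcription factor gene *Pax6*, had 8.76, 10.4 and 5.24 CPM in high glucose and 10.2, 10.7 and 18.2 CPM in low glucose (log2FC = −0.69, SE 0.29, edgeR adjusted p = 0.096). *Pax6os1*, antisense to *Pax6*, had 7.89, 4.80 and 4.64 CPM in high glucose, above the 3.60, 2.57 and 3.90 CPM of low glucose (edgeR adjusted p = 0.16). *Pcsk2os1*, antisense to the prohormone convertase gene *Pcsk2*, had 4.54, 10.4 and 4.94 CPM in high glucose and 6.36, 9.95 and 13.7 CPM in low glucose. *Pax6os1* and *Pcsk2os1* were picked for their neighbours after their values were seen. *Pcsk2* itself was higher, with 8289 ± 73.2 CPM in high and 7847 ± 192 CPM in low glucose (SD, n = 3 each; edgeR adjusted p = 0.033).

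*Gm48855* (ENSMUSG00000111160, chromosome 9) had the highest level of all, also per length, with 231 CPM per kb in high and 400 CPM per kb in low glucose. The next gene by this measure, *Gm43305* (chromosome 14), had 29.7 and 29.6 CPM per kb in high and low glucose. In single libraries *Gm48855* had 459, 551 and 690 CPM in high glucose and 1487, 679 and 785 CPM in low glucose. High glucose replicate 3 lay above low glucose replicate 2, so the conditions overlapped although the gene was called lower (log2FC = −0.79, SE 0.18, edgeR adjusted p = 0.0021). Without low glucose replicate 1 the log2FC was −0.38 (adjusted p = 0.004), and DESeq2 with all libraries did not call it (adjusted p = 0.15). *Map2k1*, the MEK1 kinase gene that overlaps it on the opposite strand, had 56.5 ± 0.711 CPM in high and 58.3 ± 4.88 CPM in low glucose (SD, n = 3 each).

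By contrast, *Gm43305* was level, with 147, 152 and 148 CPM in high glucose and 141, 163 and 142 CPM in low glucose (log2FC = 0.01, SE 0.08). It is one of 7 lncRNAs whose description in the table matches a retroelement protein, where copies elsewhere in the genome can share reads. Of these 7, 1 was higher and none was lower, with a median log2FC of 0.01. The higher one, *ENSMUSG00000120992* (chromosome 17), had 31.3, 38.8 and 33.6 CPM in high glucose, against 17.1, 30.3 and 23.7 CPM in low glucose. The conditions were narrowly apart (log2FC = 0.54, SE 0.18, edgeR adjusted p = 0.033). It was not called without high glucose replicate 2 or 3 or low glucose replicate 1 or 3, nor with library totals only or upper-quartile factors (adjusted p 0.051 to 0.16).

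By fold change, the largest rises that were kept with each library left out were in *Gm16315* and *4930524O07Rik*. *Gm16315* (ENSMUSG00000090230, chromosome 10) had 15.7, 23.4 and 15.0 CPM in high glucose, against 4.35, 2.66 and 3.98 CPM in low glucose. The lowest high glucose library exceeded the highest low glucose library by a wide margin (log2FC = 2.30, SE 0.28, edgeR adjusted p = 2.1e-06). *4930524O07Rik* (ENSMUSG00000090207, chromosome 9) had 4.85, 5.88 and 5.68 CPM in high glucose, against 1.59, 1.46 and 1.14 CPM in low glucose, and again the conditions were well apart (log2FC = 1.97, SE 0.45, edgeR adjusted p = 0.0024).

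The lncRNA with the most extreme positive value rested on 1 library. *1700052H01Rik* (chromosome 3) had 1119, 11 and 32 counts in high glucose (69.5, 0.660 and 1.58 CPM) and 15, 10 and 4 counts in low glucose (1.59, 0.858 and 0.325 CPM). High glucose replicate 1 was far above the other 5 libraries, which overlapped. With that library the log2FC was 4.74 (SE 1.11, edgeR adjusted p = 0.0031), and without it 0.30 (adjusted p = 0.89). limma-voom did not call it either (adjusted p = 0.41).

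Further rises were smaller in level and less stable. *ENSMUSG00000120183* (chromosome 8) had 4.10, 6.06 and 4.35 CPM in high glucose, against 2.54, 1.37 and 0.894 CPM in low glucose (log2FC = 1.61, SE 0.50, edgeR adjusted p = 0.022), and lost its call without high glucose replicate 2 or low glucose replicate 2 or 3 (adjusted p 0.057 to 0.13). *Gm42067* (chromosome 19) had 6.40, 5.22 and 5.83 CPM in high glucose, against 1.70, 3.77 and 1.46 CPM in low glucose (log2FC = 1.32, SE 0.43, edgeR adjusted p = 0.030). Its call was kept without low glucose replicate 2 and lost without any one of the others (adjusted p 0.060 to 0.11). *Gm13115* (chromosome 4) had 11.7, 7.26 and 8.45 CPM in high glucose, against 4.24, 3.94 and 6.01 CPM in low glucose (log2FC = 0.94, SE 0.31, edgeR adjusted p = 0.031), and was not called without high glucose replicate 1 or 3 or low glucose replicate 1 or 2, or with limma-voom (adjusted p 0.057 to 0.18). In all 3 genes every high glucose library was above every low glucose library.

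**Figure D4:**
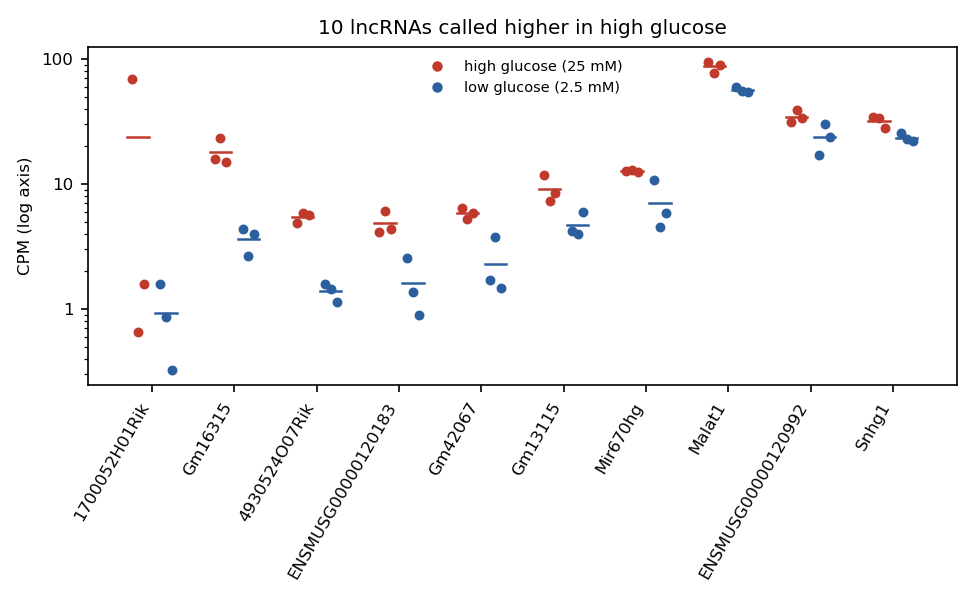
Footprint level in CPM (vertical log axis) of the 10 lncRNAs called higher in high glucose, ordered by log2 fold change. Points are single libraries and short lines are means of 3. High and low glucose do not overlap in 9 of the 10, and in *1700052H01Rik* 1 high glucose library at 69.5 CPM sets the mean.

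The falls included genes that were close to or at 0 in high glucose. *Gm34481* (ENSMUSG00000111565, chromosome 10) had 0 counts in all 3 high glucose libraries, against 141, 135 and 120 counts in low glucose (12.1 ± 2.64 CPM, SD, n = 3). With 3 counts per library as the limit that a count of 0 allows, a mean of 0.171 CPM, it was at least 70.6-fold lower in high glucose. *Gm26912* (chromosome 12) had 0, 8 and 4 counts in high glucose, against 137, 101 and 80 counts in low glucose (0.226 ± 0.241 CPM in high and 9.89 ± 4.15 CPM in low glucose). *Bloc1s6os* (chromosome 2) had 0, 8 and 11 counts in high glucose, against 115, 81 and 107 counts in low glucose (0.341 ± 0.297 CPM in high and 9.28 ± 2.67 CPM in low glucose). These 3 genes reached the minimum of 300 counts and passed the filter on low counts through the low glucose libraries alone, so their values are a description with no test, and 12 of the 15 falls remain without them. Other called genes reached the minimum mainly through the condition where they were higher, and their p-values carry this limit. Among them are *Gm16315*, *4930524O07Rik*, *1700052H01Rik*, *Gm42067*, *ENSMUSG00000120183*, *Gm31518* and *Gm13134*. Library totals were larger in high than in low glucose.

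Across the whole table, 4 genes had 0 counts in every high glucose library and at least 30 in every low glucose library, and 3 of them are lncRNAs (*Gm34481* and, under 300 counts, *Gm9944* and *Gm39556*). No gene showed the reverse.

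Other lncRNAs fell less steeply. *1810008I18Rik* (ENSMUSG00000100094, chromosome 7) had 16.7, 19.5 and 18.6 CPM in high glucose, against 50.2, 49.0 and 60.3 CPM in low glucose, a tight and separate pair of groups (log2FC = −1.54, SE 0.14, edgeR adjusted p = 4.8e-08). *Gm31518* (chromosome 8), which RefSeq lists as a pseudogene, had 1.80, 4.26 and 2.82 CPM in high glucose, against 24.3, 11.7 and 17.2 CPM in low glucose (log2FC = −2.58, SE 0.32, edgeR adjusted p = 3.5e-06). *Gm13134* (chromosome 4) had 3.67, 3.96 and 4.45 CPM in high glucose, against 31.9, 14.5 and 13.5 CPM in low glucose. Low glucose replicate 1 stood well above the others, and the log2FC was −2.30 (SE 0.30, edgeR adjusted p = 6.3e-06) with it and −1.80 (adjusted p = 5.7e-05) without it. *Gm35279* (chromosome 13) had 4.97, 3.12 and 5.33 CPM in high glucose, against 9.54, 10.3 and 11.0 CPM in low glucose (log2FC = −1.20, SE 0.30, edgeR adjusted p = 0.0049). All 4 were called lower with each library left out.

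The other 5 falls had separate conditions too but lost their calls when some libraries were left out. *1700007L15Rik* (chromosome 16) had 2.55, 0.720 and 3.01 CPM in high glucose, against 9.54, 5.06 and 3.90 CPM in low glucose. It (log2FC = −1.54, SE 0.50, edgeR adjusted p = 0.029) lost it without high glucose replicate 2 or low glucose replicate 1 (adjusted p 0.11 to 0.20). *ENSMUSG00000120112* (chromosome 3), with 6.34, 5.28 and 7.21 CPM in high glucose and 12.7, 10.4 and 11.4 CPM in low glucose (log2FC = −0.87, SE 0.26, edgeR adjusted p = 0.020), lost it without the same libraries (0.059 to 0.082). *ENSMUSG00000120113* (chromosome 13), with 13.3, 12.8 and 12 CPM in high glucose and 22.7, 27.9 and 14.9 CPM in low glucose (log2FC = −0.78, SE 0.22, edgeR adjusted p = 0.012), lost it without high glucose replicate 3 or low glucose replicate 2 (0.053 to 0.12). *Gm33989* (chromosome 7), which RefSeq lists as protein coding, had 8.76, 14.1 and 9.88 CPM in high glucose, against 16.4, 19.9 and 17.7 CPM in low glucose (log2FC = −0.72, SE 0.22, edgeR adjusted p = 0.021), and lost its call without high glucose replicate 1 or 3 or low glucose replicate 2 or 3 (0.051 to 0.097). *Gm4651* (chromosome 6) had 7.46, 6.12 and 9.88 CPM in high glucose, against 26.4, 10.7 and 10.3 CPM in low glucose, where replicate 1 stood apart (log2FC = −1.0, SE 0.31, edgeR adjusted p = 0.023). Without low glucose replicate 1 its log2FC was −0.43 (adjusted p = 0.35), and the gene also missed the threshold without high glucose replicate 1 (adjusted p = 0.068) or 2 (adjusted p = 0.11) and with limma-voom.

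**Figure D5:**
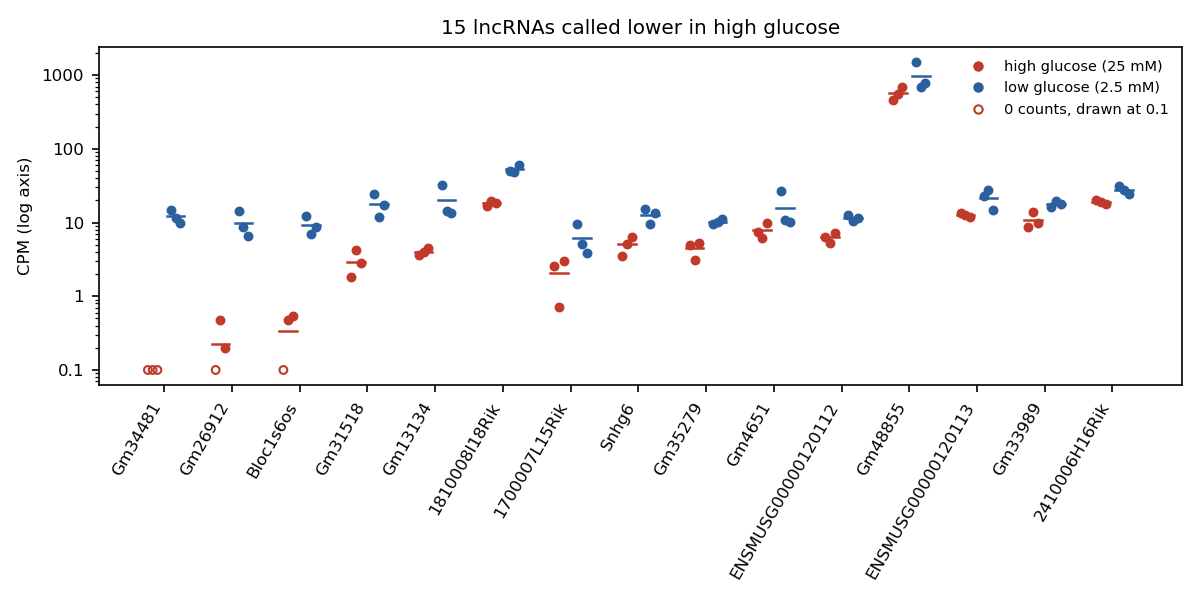
Footprint level in CPM (vertical log axis) of the 15 lncRNAs called lower in high glucose, ordered by log2 fold change. Points are single libraries, short lines are means of 3 and open points are libraries with 0 counts. *Gm34481* has no count in any high glucose library, and in *Gm48855* alone of the 15 the conditions overlap.

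Markers of acinar, endothelial, macrophage and stellate cells were lower or did not pass, while duct cell markers were higher or did not pass. Of 24 acinar cell markers tested, none was higher and 20 were lower (median log2FC −1.36), and the 28 listed markers summed to 380 to 406 CPM in high glucose and 914 to 975 CPM in low glucose. *Ctrb1* and *Cpa1* had the most counts of these, 23348 and 4008, and *Prss1* and *Ctrc* were without counts. Of 8 endothelial markers 3 were lower (236 to 245 CPM in high and 332 to 339 CPM in low glucose in sum), of 9 macrophage markers 2 were lower (172 to 176 CPM in high and 257 to 281 CPM in low glucose), and of 8 stellate cell markers 4 were lower (314 to 339 CPM in high and 449 to 480 CPM in low glucose). No marker of these 4 cell types was higher. Of 5 duct cell markers tested, *Spp1* (log2FC = 0.19) and *Krt7* (log2FC = 0.34) were higher and none was lower, and the list summed to 1803 to 1923 CPM in high and 1547 to 1588 CPM in low glucose. Their part in the lncRNA values was not tested.

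Calls were about as frequent among lncRNAs that overlap a coding gene (26.9%) as among the rest (26.5%). An antisense coding gene with at least 300 counts overlapped 26 of the 94, and of these 3 were higher, 4 were lower and 19 did not pass (median log2FC 0.05). Of the 68 with no such overlap, 7 were higher, 11 were lower and 50 did not pass (median −0.14). The 26 genes form 30 antisense pairs, of which 13 had the same sign of log2FC in both partners and 17 had opposite signs. Across these pairs, which share libraries, Pearson's r of the log2FC values was −0.01. In the 7 pairs with a called lncRNA, 3 coding partners were called, 1 of them in the same direction. Over all genes tested 22.2% were called in either direction, and the difference was not tested. *Dpf2*, a chromatin remodelling subunit opposite *Gm42067*, was higher as well (312 ± 24.1 CPM in high and 273 ± 9.42 CPM in low glucose, SD, n = 3 each; edgeR adjusted p = 0.043). *Manf*, an endoplasmic reticulum stress protein opposite *4930524O07Rik*, was lower (1045 ± 46.4 CPM in high and 1303 ± 50.6 CPM in low glucose; edgeR adjusted p = 3.0e-05) where the lncRNA was higher. *Mical3*, opposite *Gm4651*, was higher (52.6 ± 4.86 CPM in high and 38.4 ± 6.11 CPM in low glucose; edgeR adjusted p = 0.018) where the lncRNA was lower. *Pip5k1c*, a lipid kinase gene opposite *Gm16315*, did not pass (19.8 ± 3.29 CPM in high and 22.9 ± 3.00 CPM in low glucose; edgeR adjusted p = 0.47).

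Annotation was incomplete for many of these genes. Of the 94, 13 carry only an identifier as their name (2 higher, 2 lower), and 68 were found in the RefSeq table, 63 of them as lncRNA and 4 as protein coding. Besides *Gm33989*, the coding entries are *Gm32856* (log2FC = −0.56, SE 0.28), *Gm39469* (log2FC = 0.45, SE 0.29) and *Gm12500* (log2FC = −0.17, SE 0.42), none of which passed. Some of the more abundant lncRNAs were not called. *1500032F14Rik*, the third by level per kb, had 15.3, 15.3 and 20.2 CPM in high glucose and 42.9, 15.9 and 21.9 CPM in low glucose, again with replicate 1 of low glucose apart (edgeR adjusted p = 0.071). *ENSMUSG00000120224*, the fifth, had 14.2 ± 5.67 CPM in high and 14.6 ± 3.82 CPM in low glucose (SD, n = 3 each). At the other end, *Rian* and *Meg3* were the lowest of the 94 per length, at 0.233 and 0.332 CPM per kb in high glucose and 0.175 and 0.180 CPM per kb in low glucose.

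The rule for named genes left out 51 lncRNAs, among them *Pax6os1*, *Pcsk2os1*, *1110038B12Rik* and *ENSMUSG00000120012*, which are described above. The 51 had 308 to 1133 counts and no call, since the rule named every called gene. Their log2FC ran from −1.06 to 1.15 with a median of −0.12, and 33 lay within 0.5 of 0. High glucose lay wholly below low glucose in 8 of the 51 and wholly above in 1 (*Pax6os1*). Over all genes tested the shares were 18.0% and 19.5%. Called genes had been taken out of the 51 but not out of all genes, so these values cannot be compared. The lowest adjusted p-value of the 51 was 0.051 (edgeR), so several are near the threshold.

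At the count minimum itself, the 3 genes just inside were *ENSMUSG00000120183* and *Gm50240* with 306 counts each and *D630024D03Rik* with 302. The 3 just outside were *Snhg9* with 296, *4933404O12Rik* with 294 and *A330069E16Rik* with 291, with log2FC values of 0.54, 0.09 and 0.12. In *Snhg9* single libraries held 56, 106 and 45 counts in high glucose and 43, 15 and 31 counts in low glucose. Altogether 12 of the 17 host genes named *Snhg* or *Gas5* had fewer than 300 counts (3 to 296), and none of the 9 that were tested passed.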

How the data were processed

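The authors removed rRNA and tRNA reads with Bowtie, mapped those left (TopHat2, version 2.0.12) and assigned them to genes (HTSeq, version 0.9.1), and the deposited values are raw whole-number counts per gene. The deposited gene lengths (another unit, in bases) served only for CPM per kb. Strand setting, counting mode and annotation release are not given in the sources used here. The study tested with DESeq2 (version 1.14.1). The labels name the build mm10, but only 3.54% of 38986 genes matched by symbol start within 2000 bases of their GRCm38.p6 RefSeq start, so chromosomes and overlaps come from the table and no position is printed from it. Start sequences are from RefSeq (GRCm38.p6).

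Of 56747 genes, 27945 had counts and 13100 passed filterByExpr. The test was that of edgeR (version 4.0.16, in R version 4.3.3) with TMM scaling and the quasi-likelihood F statistic, with Benjamini-Hochberg adjustment over all 13100 genes (common dispersion 0.0422). Replicates are labelled as biological repeats. Within a condition they differed beyond sampling noise (chi-square per degree of freedom 6.75 to 11.1) and correlated at a Spearman rho of 0.971 to 0.981. Errors rest on 3 libraries per condition, and count limits cover counting error only. The test was checked on simulated data.

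The members and the gene lists were chosen with earlier results of these data known. Named lncRNAs are the snoRNA hosts, those on a list, the 12 largest and 12 smallest log2FC among separated calls, the 10 with most counts and most counts per kb, those RefSeq gives a protein, and the 3 nearest the minimum on each side, 43 of the 94. The lncRNAs with snoRNA genes and the remaining calls are described beside them. Alternatives were DESeq2 (version 1.42.0), limma-voom (limma version 3.58.1), scaling by DESeq2 size factors, by upper quartiles or by library totals only, testing every gene with a count or those with at least 10 counts per library, the replicate number as a block, each library left out, and member minima of 100 and 1000 counts or equal library weights. The share without *Gm48855* was added after seeing the data. RNA-seq of the study is not analysed here. Figures used Python (version 3.11.15) and matplotlib (version 3.10.9).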

Additional observations from a re-analysis of the deposited data

How the results depend on the processing

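Over 43 lncRNAs and all alternatives, 518 of 597 values kept their sign and their side of the threshold, 51 lost the call, 5 gained one and 23 changed sign. Sign changes came in these genes, none of which was called with all 6 libraries. *Gm43305* was at −0.0054 with DESeq2, −0.0053 with DESeq2 size factors, −0.0072 with at least 10 counts in every library and −0.04 with library totals only or upper-quartile factors, and *Gas5* was at −0.01 with library totals only and −0.0058 with upper-quartile factors. With 1 library left out, log2FC ran from −0.04 to 0.08 in *Gm43305*, −0.04 to 0.15 in *Gas5*, −0.22 to 0.02 in *Neat1*, −0.41 to 0.16 in *ENSMUSG00000120224*, −0.07 to 0.66 in *Rian*, −0.00077 to 1.34 in *Epb41l4aos*, −0.5 to 0.04 in *Snhg12*, −0.4 to 0.22 in *Gm12500* and −0.01 to 0.89 in *D630024D03Rik*. Calls gained were those of *1500032F14Rik* with at least 10 counts (−0.67), no filter (−0.63) or without low glucose replicate 2 (−0.92), and of *Meg3* (1.24) and *Epb41l4aos* (1.34) without low glucose replicate 2.

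Calls among the lncRNAs ranged from 5 to 9 higher and 12 to 14 lower with 1 library left out, those of the other lncRNAs from 5 to 9 and 11 to 13, and those of the snoRNA hosts from 1 to 2. In the same fits all genes gave 1180 to 1437 higher and 998 to 1237 lower, ribosomal proteins 55 to 60 calls, decay factors 3 to 5 and snoRNP proteins 0 to 2. The share on lncRNAs was 0.153% to 0.161% in high and 0.183% to 0.229% in low glucose. Of the snoRNA hosts, 1 was called with library totals only, with upper-quartile factors, or at a minimum of 1000 counts, and the cause was not tested. That minimum leaves 19 lncRNAs, of which 5 were higher and 5 lower (4 and 5 among the other lncRNAs). A minimum of 100 counts gives 268 lncRNAs with 33 calls. Outside the insulin genes the share was 0.184% in high and 0.239% in low glucose, and without *Gm48855* it was 0.103% in high and 0.113% in low glucose.

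With the replicate number as a block, 27 lncRNAs were called, the same 25 and *A630052C17Rik* and *Ttc39aos1*. Deviations of same-numbered libraries correlated at 0.00741, 0.00678 and 0.0105, and each library correlated best with its own number. Correlations this weak cannot show whether equal numbers mark islets of the same mice. The main test used no pairing. Of the 94 genes, 75 had fewer than 1000 counts.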

Other observations

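Below 300 counts, 352 further lncRNA genes were tested, of which 5 (1.42%) were higher and 23 (6.53%) were lower in high glucose (median log2FC −0.27). Over all genes tested, 12.1% were higher and 10.2% were lower, and the difference was not tested. The 352 genes have 31 to 296 counts. Of the 23 lower ones, 7 had no count in any high glucose library, among them *Gm9944* (0, 0 and 0 counts in high glucose, 62, 36 and 45 in low glucose) and *Gm39556* (0, 0 and 0 counts in high glucose, 46, 30 and 31 in low glucose). *Etos1* had 10, 3 and 0 counts in high glucose, against 51, 61 and 70 in low glucose. Genes with few or no counts in one condition enter the test only through the other, so these counts are a description with no test. On the other side, *1810041H14Rik* had 15, 28 and 16 counts in high glucose and none in low glucose.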
